A study of Mus musculus with 4 samples.

Results

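Choroid plexus nuclei are described here in a single-nucleus RNA sequencing study of the mouse posterior hindbrain. They are the nuclei that the authors kept and annotated as choroid plexus in their deposited table, 773 of 39461 kept nuclei in 4 libraries. The table splits them into 3 preliminary clusters, numbered 23, 29 and 34, with 357, 222 and 194 nuclei. The tissue was a piece of hindbrain holding the area postrema (AP) and the nucleus of the solitary tract (NTS) of mice aged 12 to 20 weeks, of both sexes. AgRP-Gq;POMC-Gi mice (AgRP-IRES-Cre+/-;hM3DGqfl/-;POMC-Dre+/-;hM4DGifl/-) carry the excitatory receptor hM3DGq in AgRP neurons, through Cre, and the inhibitory receptor hM4DGi in POMC neurons, through Dre. Both receptors respond to clozapine-N-oxide (CNO), so that the drug activates the first cells and inhibits the second. Control mice are labelled WT, and in the breeding scheme of the study controls carry the receptor alleles without either recombinase. Mice of both groups received CNO at 3 mg/kg intraperitoneally and were killed 1 h later without access to food. Each group has 2 libraries, called replicates 1 and 2. The design text gives 2 mice per group and states that samples of the same condition were pooled, but which mice went into which library is not given in the sources used here, and the spread between libraries may be partly technical.

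The choroid plexus is a folded epithelium on a core of stroma and vessels that hangs into the brain ventricles and secretes cerebrospinal fluid. Its cells move sodium, chloride, bicarbonate and water from blood to ventricle, are sealed to each other by tight junctions, and release carrier proteins and growth factors, above all transthyretin (Ttr), which binds thyroid hormone. The plexus of the fourth ventricle is attached to the hindbrain roof next to the AP, so that a dissection of this region can carry along more or less of it.

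Choroid plexus nuclei came almost entirely from the replicate 2 library of each group. Control replicate 1 held 2 of them among 9725 kept nuclei, which is 0.0206% with an exact (Clopper-Pearson) 95% interval of 0.00249% to 0.0743%. Control replicate 2 held 436 of 10051 (4.34%, 3.95% to 4.75%). AgRP-Gq;POMC-Gi replicate 1 held 6 of 9723 (0.0617%, 0.0226% to 0.134%), and replicate 2 held 329 of 9962 (3.30%, 2.96% to 3.67%). The intervals cover counting error only. The gap between the libraries of a group was far wider than the gap between the groups, whose shares were 2.18% ± 3.05 (SD, n = 2) in controls and 1.68% ± 2.29 (SD, n = 2) in AgRP-Gq;POMC-Gi mice. The exact two-sided permutation test gave p = 1, and 2 libraries against 2 cannot go below 0.333. Ependymal nuclei, which line the same ventricle, made up between 0.637% and 0.926% of every library, and tanycyte-like nuclei between 0.259% and 0.833%. Fibroblasts, which also occur in the plexus stroma and the meninges, were 0.740% and 3.89% in control replicates 1 and 2 and 1.91% and 1.71% in AgRP-Gq;POMC-Gi replicates 1 and 2. No barcode of a choroid plexus nucleus was shared between libraries. How much plexus each dissection carried is not given in the sources used here, and the cause of the gap was not tested.

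**Figure D1:**
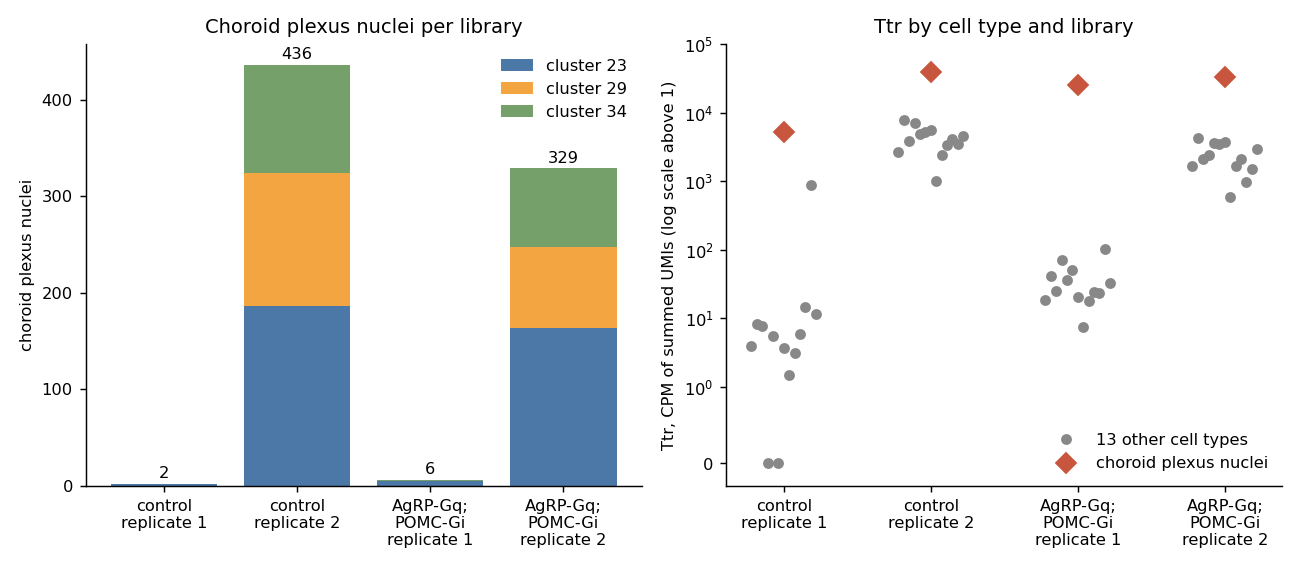
Left, choroid plexus nuclei per library, stacked by preliminary cluster. The counts are 2, 436, 6 and 329, so that nearly all nuclei stand in the replicate 2 libraries. Right, Ttr in UMIs per 1000000 UMIs (CPM, log scale above 1) per library in choroid plexus nuclei (diamonds) and in the 13 other annotated cell types (points); the points lie about a median of 5.56, 4167, 24.7 and 2086 CPM in the same order of libraries.

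The few nuclei of the replicate 1 libraries were checked gene by gene. The 6 nuclei of AgRP-Gq;POMC-Gi replicate 1 carried the markers of the type, with 20 to 352 unique molecular identifiers (UMIs) of Ttr, 23 to 110 of Enpp2, 5 to 157 of Htr2c and 8 to 15 of the long noncoding RNA Otx2os1. The 2 nuclei of control replicate 1 lacked several of these markers. The first had 4006 UMIs, with 7 of Enpp2 and 1 of Prlr but none of Ttr, Htr2c or Otx2os1, and held 16 UMIs of Mbp, which encodes myelin basic protein. The second had 48 UMIs of Ttr, 58 of Trpm3, an ion channel gene abundant in the plexus, 3 of Otx2os1 and 1 each of Folr1 and Clic6 among 5240, with none of Htr2c or Enpp2, and held 8 of Slc1a2, an astrocyte glutamate transporter. Levels are therefore given for the replicate 2 libraries, and comparisons between groups rest on 1 usable library per group and carry no test.

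The 436 and 329 nuclei of the replicate 2 libraries held 1943525 and 1561977 UMIs in all. The median nucleus had 4177.5 UMIs in control replicate 2 and 4466 in AgRP-Gq;POMC-Gi replicate 2, and mitochondrial RNA made up 0.642% and 0.728% of the median nucleus. The whole libraries had medians of 3211 to 3502 UMIs per kept nucleus over all 4 libraries. Levels below are UMIs summed over the nuclei of a library per 1000000 of all their UMIs (CPM), and the level in another cell type is that of its nuclei of the 4 libraries summed.

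The marker genes fitted the annotation in the replicate 2 libraries. Each of 12 choroid plexus markers had its highest level among the 14 annotated types in these nuclei, as did 1019 (14.3%) of the 7115 genes that were counted in 10% of them or more. This 14.3% is what is meant below by the share of all genes, though some listed genes were counted in fewer nuclei. At least 3 of the markers Folr1, Kcnj13, Clic6, Kl, Otx2 and Enpp2 were counted in 752 of the 773 nuclei, and also in 217 kept nuclei annotated as other types, 120 of them neurons. The annotation was built from the same expression values, so these figures describe the nuclei and test nothing. Ttr stood at 38941 CPM in control replicate 2 and 32484 in AgRP-Gq;POMC-Gi replicate 2, 9.84 times the pooled level in endothelial nuclei, the next highest type, though endothelial nuclei of the same libraries reached 7807 and 4200 CPM. Folr1, the folate receptor that carries the vitamin across the epithelium, stood at 382 and 368 CPM, 10.6 times the next type. Htr2c, the serotonin 2C receptor, stood at 14040 and 14250 CPM, 19.2 times the level in neurons. Enpp2, which encodes the secreted enzyme autotaxin, stood at 12304 and 13289 CPM, 10.4 times the level in oligodendrocytes. In every case the libraries lay much closer to each other than either lay to the next cell type.

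**Figure D2:**
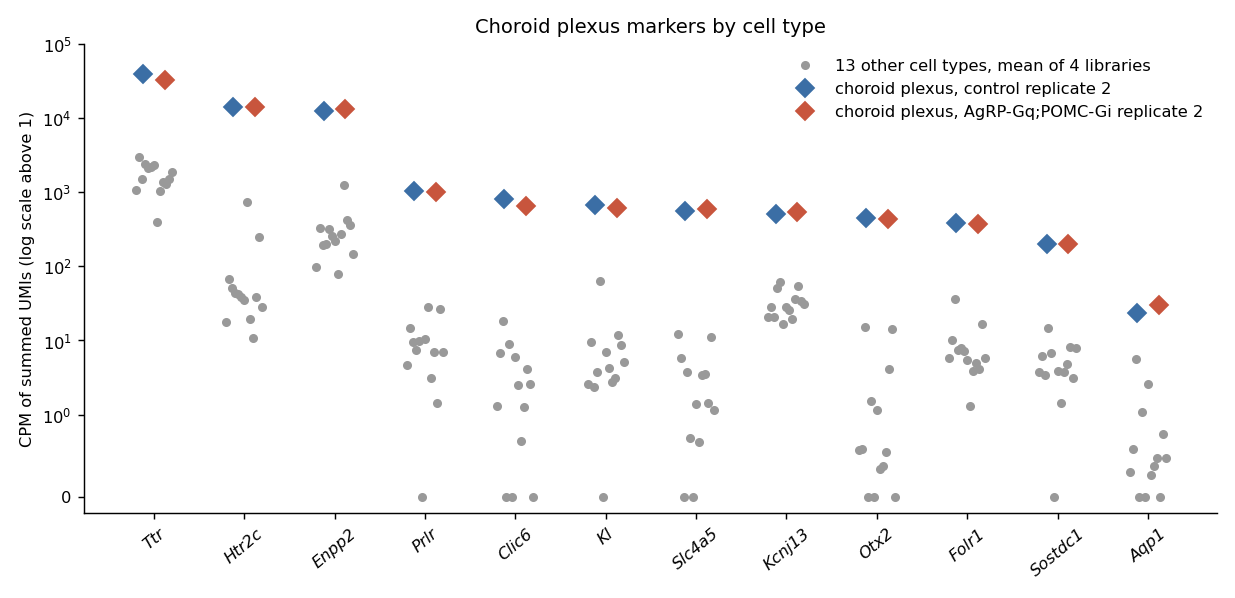
Levels of the 12 choroid plexus markers in CPM (log scale above 1) in choroid plexus nuclei of the replicate 2 libraries (blue, control; red, AgRP-Gq;POMC-Gi) and in the 13 other annotated cell types (grey, mean of the 4 libraries). Both diamonds lie above all grey points for every gene, from Ttr at 38941 and 32484 CPM down to Aqp1 at 23.2 and 30.1.

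The remaining markers varied in how far they stood above the next type, from 4.88 to 46.96 times. Prlr, the prolactin receptor, stood at 1039 and 1016 CPM, 36.2 times the level in neurons. Clic6, an intracellular chloride channel protein, stood at 821 and 654 CPM, and Slc4a5, a sodium bicarbonate cotransporter, at 558 and 599, which was 40.8 and 46.96 times the next type. Kl, which encodes the anti-ageing protein klotho, Kcnj13, an inward rectifier potassium channel, Otx2, a homeodomain transcription factor, and Sostdc1, a secreted inhibitor of BMP and Wnt signals, lay between 7.10 and 29.4 times above it. Aqp1, the apical water channel, was counted in only 45 and 47 UMIs, or 23.2 and 30.1 CPM, which was 4.88 times the level in ependymal nuclei.

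Secreted proteins were mixed in how far they set these nuclei apart. Among 9 genes, which include the markers Ttr, Enpp2 and Sostdc1, 5 were highest in choroid plexus nuclei, against 14.3% of all genes. Ecrg4, a secreted peptide precursor, stood at 558 and 425 CPM, 2.53 times the ependymal level, and Igfbp2, which binds insulin-like growth factors, at 393 and 328 CPM, 1.37 times the fibroblast level. Igf2 stood at 138 and 105 CPM against 313 in fibroblasts, Cst3, an inhibitor of cysteine proteases, at 417 and 329 against 2220 in microglia (the type named for Tmem119), Clu at 305 and 286 against 549 in ependymal nuclei, and Vegfa at 115 and 143 against 404 in astrocytes.

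Genes of fluid secretion were broadly at their highest in these nuclei, 14 of 16, against 14.3% of all genes; the 16 include the markers Aqp1, Slc4a5, Kcnj13 and Clic6. Car12, a membrane carbonic anhydrase that hydrates carbon dioxide to bicarbonate, stood at 424 and 473 CPM, 63.3 times the next type, and Kcne2, a potassium channel subunit, at 259 and 284 CPM, 27.8 times. Slc4a10, the sodium-dependent bicarbonate transporter of the basolateral membrane, stood at 3104 and 3148 CPM, 3.34 times the level in fibroblasts. Slc4a2, an anion exchanger, stood at 214 and 252 CPM, 4.47 times the next type, and Trpv4, a calcium-permeable channel that responds to osmolarity, at 206 and 233 CPM, 2.12 times. Atp1b1, a beta subunit of the sodium pump, was less selective, at 775 and 698 CPM (1.27 times the next type). Car2, a cytosolic carbonic anhydrase, was not highest here and stood at 240 and 225 CPM against 846 in oligodendrocytes.

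Junction genes were divided between this epithelium and the endothelium. Of 10 tight junction genes, 9 were counted in 10% of nuclei or more. Of the 10, 6 were highest in choroid plexus nuclei, against 14.3% of all genes. They were the claudins Cldn1, Cldn2 and Cldn3 and the epithelial junction proteins Tjp3, Cgn and Marveld3. Cldn2, a pore-forming claudin of leaky epithelia, stood at 123 and 101 CPM, 10.6 times the next type, and Tjp3 at 49.9 and 53.8 CPM, 16.0 times. Tjp1, by contrast, stood at 89.0 and 76.2 CPM against 1384 in endothelial nuclei, and Ocln at 107 and 123 against 240. The transporters of the endothelial barrier were low in the same way. Abcb1a, the efflux pump P-glycoprotein, was counted in 3 UMIs in each library, against 1083 CPM in endothelial nuclei, and Abcg2 stood at 21.6 and 25.0 CPM against 1195. Abcc1, a pump placed in the epithelial barrier, stood at 98.3 and 91.6 CPM, 2.17 times the next type.

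Carriers of vitamins and thyroid hormone were mixed. Of 7 folate and vitamin transport genes, 3 were highest in these nuclei, Folr1, Slc23a2 and Slc5a6, again against 14.3% of all genes. Of the 7, 5 were counted in 10% of nuclei or more. Slc23a2, a vitamin C transporter, stood at 686 and 698 CPM, 3.48 times the fibroblast level. Slco1c1, a carrier of thyroxine, stood at 578 and 589 CPM against 1189 in endothelial nuclei. Slc46a1, the proton-coupled folate transporter, was counted in 10 and 4 UMIs. Of 6 endocytic receptor genes, 2 of them counted in 10% of nuclei or more, none was highest in these nuclei, against 14.3% of all genes. Lrp2 (megalin) was counted in 2 and 0 UMIs, against 137 CPM in ependymal nuclei.

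The 8 genes counted here of receptors for peptides that AgRP and POMC neurons release were close to absent. Of them, 1 was highest in choroid plexus nuclei, against 14.3% of all genes, and 0 were counted in 10% of nuclei or more. Receptors for GABA and glutamate were not on the list and were not examined. These were the melanocortin receptors Mc3r and Mc4r, the NPY receptors Npy1r, Npy2r and Npy5r and the opioid receptors Oprm1, Oprd1 and Oprk1. The 8 gave 12 UMIs in all in the 436 nuclei of control replicate 2 and 14 in the 329 of AgRP-Gq;POMC-Gi replicate 2. Npy2r, Npy5r, Oprd1 and Oprk1 had no UMI in either library, where the upper exact bound on 0 counts is 1.90 CPM in control replicate 2 and 2.36 in AgRP-Gq;POMC-Gi replicate 2. Among 15 receptors of hormones and serotonin, 11 were counted in 10% of nuclei or more. The markers Htr2c, Prlr and Kl were highest in choroid plexus nuclei, against 14.3% of all genes. Lepr, the leptin receptor, stood at 93.6 and 112 CPM against 155 in fibroblasts, and Glp1r was counted in 0 and 1 UMI.

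Transcription factors of the roof plate and of multiciliated cells were both found, but unevenly. Of 15 transcription factor genes, 5 were highest in choroid plexus nuclei, against 14.3% of all genes. Of the 15, 10 were counted in 10% of nuclei or more. The median ratio to the next type was 0.447, against 0.590 over the 7115 genes. Lmx1a, a factor of the roof plate from which the plexus arises, stood at 456 and 453 CPM, 2.12 times the tanycyte-like level, and Msx1 at 167 and 190 CPM, 1.55 times. Gmnc, which starts the multiciliated cell programme, stood at 2237 and 1980 CPM, 42.9 times the ependymal level. Rfx3, a ciliary factor, stood at 1129 and 1270 CPM, near the ependymal 1099. Rfx2 stood at 85.4 and 106 CPM and Trp73 at 54.5 and 70.4. Lmx1b was counted in 15 and 11 UMIs, and Mcidas, which acts with Gmnc, had no UMI in either library.

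The genes of the motile axoneme did not follow Gmnc. Of 16 motile cilium genes, 0 were highest in choroid plexus nuclei, each was higher in ependymal nuclei, and the median ratio to the next type was 0.170, against 0.590 over the 7115 genes. Of the 16, 12 were counted in 10% of nuclei or more, as all of the 7115 were. Foxj1, the master factor of motile cilia, stood at 57.1 and 73.6 CPM against 212 in ependymal nuclei. Dnah9 and Dnah11, outer arm dynein heavy chains, stood at 212 and 264 CPM and at 178 and 213 CPM, against 1071 and 976. Dnah5, another heavy chain of the outer arm, was counted in 4 and 0 UMIs and Dnah12, of the inner arm, in 5 and 6, against 600 and 1806 CPM in ependymal nuclei. Ccdc39, which sets the repeat length of the axoneme, came nearest, at 271 and 272 CPM against 433, followed by Spag16, of its central apparatus, at 1091 and 1212 CPM against 2112. The set was therefore uneven, with ratios to the ependymal level from 0.0017 to 0.627.

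Markers of other cells were low but not nil. Summed over each list, neuron markers came to 658 and 663 CPM, oligodendrocyte markers to 411 and 295, astrocyte markers to 59.7 and 43.5, fibroblast markers to 34.5 and 18.6, and endothelial markers to 21.1 and 27.5. At least 2 markers of neurons or oligodendrocytes were counted in 331 of the 436 nuclei of control replicate 2 and in 214 of the 329 of AgRP-Gq;POMC-Gi replicate 2. Of the neuron markers, Rbfox3 was counted in 16 and 3 UMIs, Syt1 in 366 and 359 and Meg3 in 766 and 602. The 105 and 115 nuclei with fewer than 2 markers of neurons or oligodendrocytes were shallower, at medians of 3320 and 3710 UMIs against 4610 and 5007. They held 19 and 12 nuclei of cluster 34, 44 and 35 of cluster 29 and 42 and 68 of cluster 23. The nuclei with 2 or more held 93 and 69, 94 and 49, and 144 and 96. Among 6 markers of macrophages and microglia, only Cx3cr1, the fractalkine receptor, was well above 0, at 250 and 211 CPM, whereas C1qa had 14 and 4 UMIs, Tmem119 none, and Mrc1, F13a1 and Csf1r between 0 and 6. The other markers of the list thus amounted to a few UMIs beside the 485 and 330 of Cx3cr1.

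The 20 genes with the highest ratio to any other annotated type were 11 protein-coding genes, the markers Slc4a5, Clic6 and Prlr among them, and 9 noncoding RNAs. Defb9, a beta-defensin, had 193 UMIs in the choroid plexus nuclei of the replicate 2 libraries (55.6 and 54.4 CPM) and 2 in all astrocytes, the next type. Tmem72, a membrane protein, stood at 696 and 792 CPM, 58.3 times the next type (95% counting interval 30.6 to 128). Oca2, which encodes a melanosomal anion transporter, stood at 277 and 369 CPM, 45.2 times (19.3 to 139). Crhr2, a receptor of the corticotropin-releasing hormone family, stood at 76.7 and 99.9 CPM, 40.0 times the mural level (13.6 to 195). Ldc1, Clec18a, Car12, Slc4a5, Gmnc, Clic6 and Prlr were the other protein-coding genes. The noncoding RNAs were Gm48447, 4930455M05Rik, Gm534, Gm47043, Gm44933, Otx2os1, Gm13110, Snhg7os and Gm49156.

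Among these noncoding RNAs, 3 lie near Otx2 on chromosome 14, Otx2os1 beside it and the others within or at the far end of Otx2os1 (GENCODE M21 on GRCm38). Otx2os1, on the plus strand at chr14:48668708-48870683, stood at 2757 and 3143 CPM and was 109 times the tanycyte-like level (70.0 to 182). Gm534, on the minus strand at chr14:48870258-48881869, stood at 361 and 338 CPM, and Gm49156, on the minus strand at chr14:48727414-48740809 inside Otx2os1, at 181 and 183 CPM. These genes overlap Otx2os1 on the opposite strand, so reads of the shared stretches can be told apart only by strand. The tanycyte-like level of Otx2os1 came from 19 UMIs, 15 of which were in 1 nucleus of control replicate 1.

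OTX2 binds bicoid-type sites with the core TAATCC, so the promoters of these genes, which share a pattern across cell types, were searched for it. Of 29 genes that are markers or among the 20, 17 are in the RefSeq promoter table (GRCm38.p6), with 25 promoters. Within 250 bases upstream of the start and on either strand, TAATCC was found in 3 of 25 promoters (12%), against 6.25% of all 32851. The RFX-type half-site GTTGCC was found in 5 (20%, against 10.4%) and the forkhead-type GTAAACA in 1 (4%, against 3.17%). The letters of these motifs do not contain one another. The 3 promoters that hold TAATCC are shown because they are the ones behind that count, each as the 100 bases farthest upstream in the window, 5′ to 3′ on the strand of the gene, with the motif or its reverse complement in capitals. All are on the minus strand: Clec18a at chr8:111081859-111081958, Ldc1 at chr4:130222446-130222545 and Otx2, which has several RefSeq starts, at chr14:48665260-48665359. The first match begins 234 bases upstream of the start in Clec18a, 250 in Ldc1, which holds more than one, and 211 in Otx2.
Clec18a: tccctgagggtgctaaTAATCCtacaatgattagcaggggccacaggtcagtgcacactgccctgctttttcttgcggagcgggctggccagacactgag
Ldc1: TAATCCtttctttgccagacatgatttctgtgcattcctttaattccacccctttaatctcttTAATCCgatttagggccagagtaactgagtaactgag
Otx2: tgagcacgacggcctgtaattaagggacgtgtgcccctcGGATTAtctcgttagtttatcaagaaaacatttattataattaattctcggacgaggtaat
A match is a description of the letters and shows no binding, and it was found in 3 of the 17 genes.

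Ttr was also counted outside choroid plexus nuclei, at far higher levels in the libraries that held many of them. Over the 13 other types the median level was 5.56 CPM in control replicate 1 and 24.7 in AgRP-Gq;POMC-Gi replicate 1, but 4167 in control replicate 2 and 2086 in AgRP-Gq;POMC-Gi replicate 2. In oligodendrocytes 1.53% and 5.44% of nuclei had a Ttr UMI in the replicate 1 libraries and 99.9% and 98.7% in the replicate 2 libraries, at a median of 2460 UMIs per nucleus over the 4 libraries against 4291 in choroid plexus nuclei. Of the Ttr UMIs of all kept nuclei of control replicate 2, 55.7% lay outside choroid plexus nuclei, and 51.6% in AgRP-Gq;POMC-Gi replicate 2. A UMI of Ttr thus did not set choroid plexus nuclei apart in the replicate 2 libraries, and its level in choroid plexus nuclei, 38941 and 32484 CPM, is to be read against the 7807 and 4200 CPM of endothelial nuclei of the same libraries, the highest of the other types.

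The transcripts outside these nuclei differed in makeup from those inside. There were 2.77 and 2.28 UMIs of Ttr for each of Htr2c in choroid plexus nuclei of the replicate 2 libraries, but 185 and 157 in oligodendrocytes of the same libraries. Htr2c stood at 18.01 and 13.3 CPM in those oligodendrocytes and at 5.44 and 6.95 in those of the replicate 1 libraries, so it too was higher in the libraries with many choroid plexus nuclei. The part of free RNA in these values was not tested.

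The 3 preliminary clusters differed in depth and in secreted proteins. Cluster 23 held 42.7% of the choroid plexus nuclei of control replicate 2 and 49.8% of those of AgRP-Gq;POMC-Gi replicate 2, cluster 29 held 31.7% and 25.5%, and cluster 34 held 25.7% and 24.6%. Median UMIs per nucleus were 4632.5 and 4654.5 in cluster 23, 5059 and 5624 in cluster 34, but 2909 and 3128 in cluster 29. Of the markers of the type, 11 had at least 50 UMIs in each cluster. Ttr, Folr1 and Sostdc1 were at least 1.5-fold higher in cluster 29 in both libraries, and none was in clusters 23 and 34. Otx2, Enpp2, Prlr and Clic6 stood within 0.84 to 1.19 times the level of the other clusters in each cluster and library, and Slc4a5 was lower in cluster 29 (0.73 and 0.75). All values that compare clusters are descriptions, since the clusters were made from these counts.

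Cluster 29 carried the most transcripts of secreted proteins. Ttr reached 78790 and 65204 CPM there (control replicate 2 and AgRP-Gq;POMC-Gi replicate 2), against 27650 and 24583 in cluster 23 and 25909 and 26636 in cluster 34. Of the 9 secreted protein genes, 7 were at least 1.5-fold higher in cluster 29 than in the other clusters in both libraries, against 8.7% of 3185 genes with at least 50 UMIs in that cluster. The ratios were 2.92 and 2.57 for Ttr, 2.71 and 2.80 for Ecrg4, 2.81 and 2.34 for Cst3, 2.76 and 2.44 for Igf2, 2.08 and 2.30 for Igfbp2, 2.21 and 2.06 for Sostdc1 and 1.94 and 2.16 for Clu. Enpp2, at 1.10 and 1.05, and Vegfa, at 0.84 and 1.00, were the exceptions. Folr1 (1.66 and 1.89), Fxyd1, which modulates the sodium pump (3.68 and 2.08), and the chaperones of the endoplasmic reticulum Hspa5 (1.47 and 1.88) and Calr (2.27 and 1.78) were also higher in cluster 29. Htr2c (0.88 and 0.83) and Gmnc (0.79 and 0.70) were lower there.

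Other measures moved with cluster 29 too. Mitochondrial RNA made up 1.05% and 1.30% of its median nucleus, against 0.400% and 0.468% in cluster 23 and 0.605% and 0.438% in cluster 34, and ribosomal protein genes made up 1.06% and 0.929% of its UMIs, against 0.518% to 0.595% in the others. The oligodendrocyte markers summed to 590 and 697 CPM, against 206 to 361. In cluster 29, 90 of 3185 genes (2.83%) were at least 2-fold higher than in the other clusters in both libraries. The 10 with the largest ratio, Lrrtm4, Il1rapl1, Csmd3, Pcdh9, Mdga2, Zeb2, Nlgn1, St18, Lrrc4c and Pex5l, all had their highest level in another type, between 2537 and 16185 CPM. Most genes did, since 14.3% of the 7115 counted in 10% of choroid plexus nuclei or more were highest in these nuclei. Across genes, the ratio of cluster 29 to the others went down with gene length (Spearman's rho = -0.44 over 4173 genes in control replicate 2 and -0.39 over 3419 in AgRP-Gq;POMC-Gi replicate 2), and the genes of a library share its depth. With each nucleus thinned to 800 UMIs, the Ttr ratio of cluster 29 over both libraries was 2.60, against 2.81 with all UMIs. The part of free RNA and of other nuclei in this cluster was not tested.

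Cluster 23 had more genes that stood above the other clusters than cluster 34 had. In cluster 23, 44 of 6397 genes (0.688%) were at least 2-fold higher than in the other clusters in both libraries. Among the 3 clusters Spag17, of the axoneme's central apparatus, was almost confined to cluster 23, with 42 of 45 UMIs of control replicate 2 and 18 of 19 of AgRP-Gq;POMC-Gi replicate 2. Sox6, a transcription factor, stood at 149 and 111 CPM against 35.4 and 25.2 in the other clusters, Mecom, another, at 453 and 468 against 125 and 150, and Col4a6, a chain of basement membrane collagen, at 107 and 89.2 against 25.8 and 21.2. Dusp15, a phosphatase, and the noncoding RNAs Rmst, Gm29478 and Hoxb3os followed the same order, with ratios of 2.89 to 4.52. Most of these genes were higher still in another cell type. By comparison, 14.3% of the 7115 genes counted in 10% of choroid plexus nuclei or more were highest in choroid plexus nuclei. Spag17 stood at 910 CPM in ependymal nuclei, Sox6 at 1517 in oligodendrocyte precursors, Mecom at 2106 in endothelial nuclei and Col4a6 at 339 in fibroblasts. Rmst and Gm29478 stood at 1571 and 876 CPM in tanycyte-like nuclei, and Hoxb3os at 231 in astrocytes. Dusp15, at 368 and 407 CPM in cluster 23, was near its next type (367). Slco1c1 (1.75 and 1.65), Slco1a5, an organic anion carrier (1.62 and 1.73), Zic1, a hindbrain zinc finger factor (1.55 and 1.48), and Hydin, another gene of the central apparatus (1.60 and 1.51), were moderately higher. At 1.5-fold in both libraries there were 136 genes (2.13%).

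Cluster 34 had few genes that stood above the other clusters, 7 of 4506 (0.155%) at least 2-fold higher in both libraries and 50 (1.11%) at least 1.5-fold. Dlk1, an imprinted membrane protein of immature cells, stood at 181 and 213 CPM in cluster 34 against 35.7 and 46.0 in the other clusters (ratios 5.07 and 4.63). Dach2, a transcriptional cofactor, stood at 78.7 and 150 CPM against 14.9 and 17.5, and Defb9 at 114 and 112 against 29.7 and 29.4. In the next cell type Dach2 stood at 152 CPM (tanycyte-like nuclei), Dlk1 at 15.8 (neurons) and Defb9 at 0.126 (astrocytes). Meg3, a noncoding RNA from the same imprinted region as Dlk1 and used here as a neuron marker, was 1.57 and 2.497 times the level of the others in cluster 34 and 0.43 and 0.33 times in cluster 23. Htr2c (1.37 and 1.29) and Gmnc (1.51 and 1.45) were also highest in cluster 34.

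**Figure D3:**
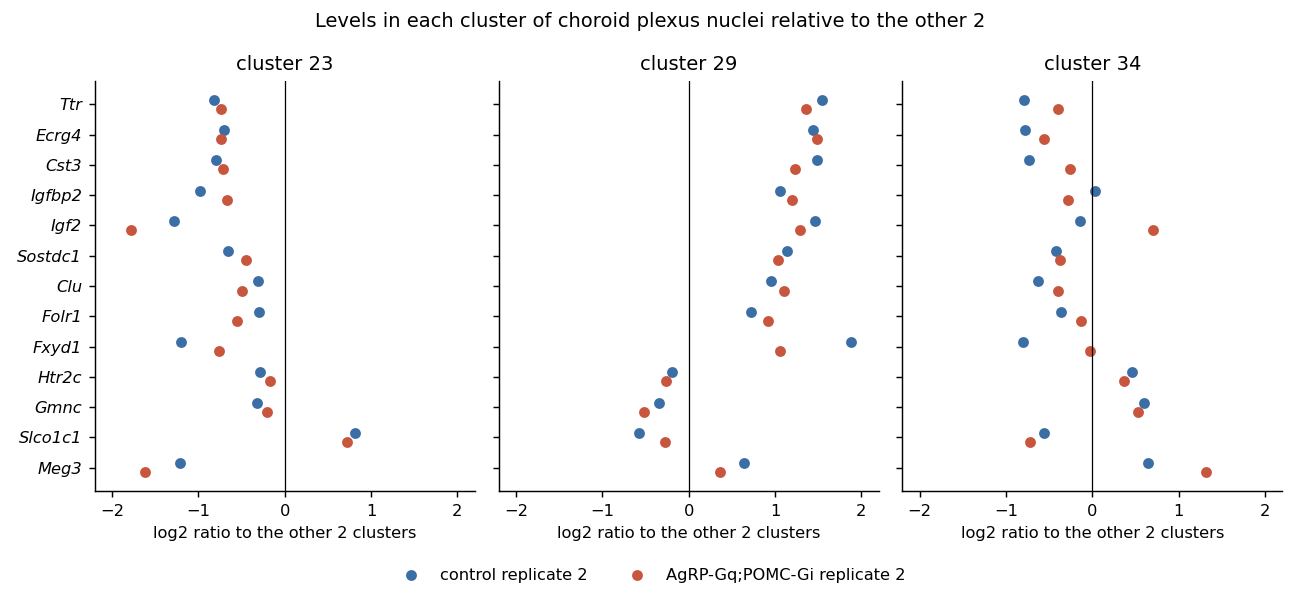
Log2 ratio of the level in each preliminary cluster to the other 2 clusters, for secreted proteins and further genes named in the text, in control replicate 2 (blue) and AgRP-Gq;POMC-Gi replicate 2 (red). In cluster 29 the genes from Ttr to Fxyd1 lie right of 0 in both libraries, and Slco1c1 does so in cluster 23 and Meg3 in clusters 29 and 34.

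Choroid plexus nuclei of AgRP-Gq;POMC-Gi replicate 2 were compared with those of control replicate 2, to see how activating AgRP and inhibiting POMC neurons for 1 h relates to expression in the plexus. With 1 usable library per group this compares libraries, and the interval given with each log2 ratio (exact, 95%) covers counting error only. Of 6517 genes with at least 100 UMIs in the libraries together, 4 (0.0614%) were at least 2-fold higher and 11 (0.169%) at least 2-fold lower, 15 in all (0.23%). The median log2 ratio was 0.0037, and 5% to 95% of genes lay between -0.44 and 0.40. Counting intervals excluded a ratio of 1 in 892 genes (13.7%).

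The animals in these libraries differed in sex. Xist, the RNA of the inactive X chromosome of females, gave 814 CPM in control replicate 2 and 14.7 in AgRP-Gq;POMC-Gi replicate 2, and 4 Y-linked genes together gave 430 and 734 CPM. Of the choroid plexus nuclei of control replicate 2, 35.3% had an Xist UMI and 55.5% a Y-linked UMI, against 6.69% and 90.3% of those of AgRP-Gq;POMC-Gi replicate 2, whose 22 nuclei with Xist all had a Y-linked UMI as well. Xist and its antisense partner Tsix were the genes with the lowest ratios (-5.79 and -2.89), and the Y-linked Eif2s3y was among those at least 2-fold higher. The sex makeup and the group cannot be told apart, so values are also given for nuclei with a Y-linked and no Xist UMI, 222 and 275 in number.

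Outside the sex-linked genes, Ceacam16, a secreted adhesion protein, stood furthest above. It had 74 UMIs in control replicate 2 and 156 in AgRP-Gq;POMC-Gi replicate 2 (38.1 and 99.9 CPM, log2 ratio 1.39, 0.98 to 1.81), and in Y-linked nuclei the ratio was 1.05 (0.58 to 1.55). Within control replicate 2 it was 49.9 CPM in nuclei with a Y-linked UMI and 15.4 in those with Xist alone. Gm13684, a noncoding RNA, and Nkap, a regulator of transcription on the X chromosome, were the others at 2-fold, and fell short of it in Y-linked nuclei (0.90 and 0.99). The lower genes were Tenm2, Chn2, Aebp1, Vapb, Kcnab1, Aldoc, Per1, 9630014M24Rik and Atp6v1f beside Xist and Tsix. With nuclei thinned to 800 UMIs, Aebp1 was 0.27, Aldoc -0.36, 9630014M24Rik -0.37 and Per1 -0.67, on few UMIs. Tenm2, Chn2, Vapb, Kcnab1 and Atp6v1f stayed past 2-fold there, on few UMIs as well. These ran from 15 and 2 for Tenm2 to 36 and 10 for Atp6v1f. The intervals of Chn2 (-3.08 to 0.24), Vapb (-2.73 to 0.31) and Kcnab1 (-2.54 to 0.02) held 0. Without cluster 23, Kcnab1 was -0.73, Aebp1 -0.93 and Per1 -0.94. Below 2-fold in Y-linked nuclei were Per1 (-0.99), 9630014M24Rik (-0.85) and Atp6v1f (-0.70), and Tsix was -0.12 there. In nuclei with fewer than 2 markers of neurons or oligodendrocytes Atp6v1f was -0.17, Kcnab1 -0.39, Chn2 -0.77 and Per1 -0.999, whereas Tenm2, Aebp1, 9630014M24Rik, Vapb and Aldoc lay between -1.18 and -2.31. Of the higher genes there, Ceacam16 was 0.98, Nkap 0.78 and Gm13684 0.54, all below 2-fold. Of the lower genes Tenm2 (40.1 and 14.7 CPM), Chn2 (49.4 and 19.8), Aebp1 (40.1 and 16.6), Kcnab1 (58.1 and 26.9) and Aldoc (48.4 and 22.4) were at under 0.1 times their level in another cell type, such as neurons for Tenm2 and astrocytes for Aldoc. The oligodendrocyte markers differed in the same direction, summing to 411 and 295 CPM (log2 ratio -0.48, -0.65 to -0.31), as did fibroblast (-0.89, -1.57 to -0.24) and astrocyte markers (-0.46, -0.91 to -0.01), and Cx3cr1 (-0.24, -0.45 to -0.04), which made up nearly all of the macrophage and microglia list. Endothelial markers were 0.38 (-0.27 to 1.04). The neuron markers summed to 658 and 663 CPM (0.01, -0.11 to 0.13), with Snap25 (-0.57, -1.01 to -0.14) and Rbfox3 (-2.10, -4.52 to -0.30) lower and Syt1 higher (0.29, 0.07 to 0.50). The part of transcripts from other cells in these genes was not tested.

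**Figure D4:**
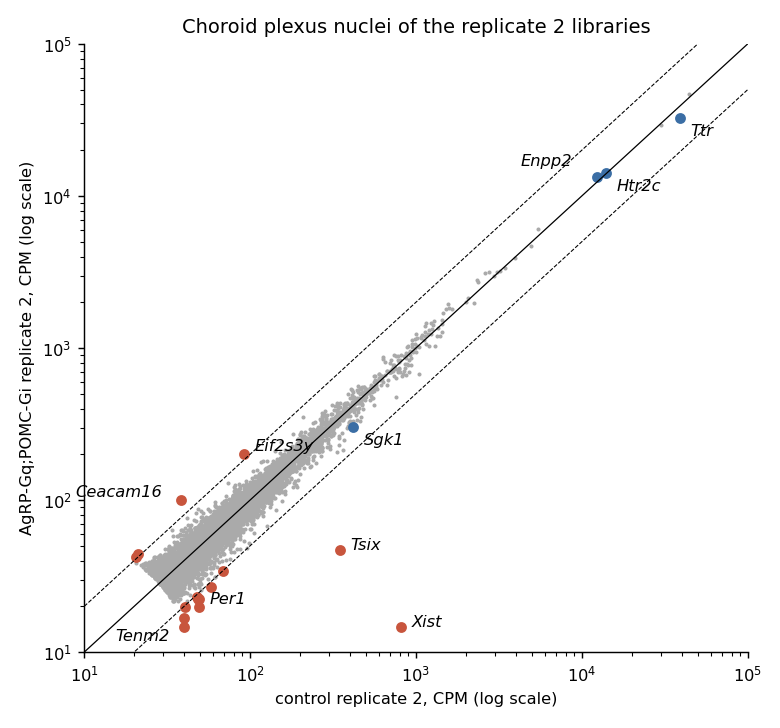
CPM of 6517 genes in choroid plexus nuclei of control replicate 2 (x, log scale) and AgRP-Gq;POMC-Gi replicate 2 (y, log scale). The full line marks equal levels and the dashed lines 2-fold, red points are the 15 genes past 2-fold, and blue points are 4 genes named in the text. Most genes lie along the line of equal levels, with Xist and Tsix farthest below.

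The genes of the epithelium's own functions stayed within 2-fold, as did nearly all genes, since 0.23% of all 6517 passed it. By any amount, 50.5% of the 6517 were higher and 49.5% lower. The 11 choroid plexus markers with enough UMIs had a median log2 ratio of -0.03 and a range of -0.33 to 0.11, 4 higher and 7 lower, and none passed 2-fold. Clic6 had the lowest ratio (-0.33, -0.44 to -0.21), and Htr2c was 14040 and 14250 CPM (0.02, -0.004 to 0.05). Of 15 ion and water transport genes 7 were higher and 8 lower, with a median of -0.04 and a range of -0.47, for Fxyd1 (-0.76 to -0.19), to 0.23, for Slc4a2 (0.03 to 0.44). Of 8 tight junction genes 5 were higher and 3 lower, with a median of 0.14, and Cgn was highest (0.47, 0.01 to 0.94).

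Secreted proteins were lower in 7 of 9 genes, with a median log2 ratio of -0.26, against 49.5% of all 6517 genes that were lower. Ttr was 0.26 lower on the log2 scale (interval of the ratio -0.28 to -0.25), and 0.09 lower (-0.11 to -0.07) without cluster 29. Cluster 29 held 31.7% of nuclei in control replicate 2 (27.3% to 36.2%) and 25.5% in AgRP-Gq;POMC-Gi replicate 2 (20.9% to 30.6%). Within clusters, Ttr stood at 78790 and 65204 CPM in cluster 29, 27650 and 24583 in cluster 23, and 25909 and 26636 in cluster 34. The part of cluster makeup in the Ttr ratio was not tested. Ttr was also lower in all 13 other types of the replicate 2 libraries, by a median log2 ratio of -0.72. These types share the same libraries and are not separate observations. The share of all genes lower in all 13 was not counted. Motile cilium genes were higher in 10 of 12, with a median of 0.14, against 50.5% of all genes. Of these only Dnah9 (0.32, 0.11 to 0.52), Dnah11 (0.26, 0.04 to 0.48) and Spag16 (0.15, 0.06 to 0.24) had intervals that excluded 0. Below 100 UMIs Spag17 was lower (-0.93, -1.78 to -0.13), as were Ccdc40 (-0.34, -1.25 to 0.53) and Dnah5 (4 and 0 UMIs), and Dnah12 was higher (0.58, -1.40 to 2.63). Cluster 23 held 42.7% and 49.8% of the nuclei, and its part in these ratios was not tested.

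Several genes that glucocorticoid hormones induce were lower. Of 16 such genes, 6 had enough UMIs and 6 of 6 were lower, Per1 among them, with a median log2 ratio of -0.42, against 49.5% of all 6517 genes that were lower. The lists were chosen with earlier results of these data known, so this count, like those of the other lists, is a description and no test. The intervals of Klf9 (-0.28, -0.59 to 0.03) and Nfkbia held 0, and below 100 UMIs Cdkn1a (0.02, -1.16 to 1.16) and Angptl4 were not lower. Sgk1, a kinase that regulates sodium channels and transporters, had 814 and 473 UMIs (419 and 303 CPM, -0.47, -0.63 to -0.30). Mt1, a metal-binding metallothionein, stood at 91.6 and 53.8 CPM (-0.77, -1.16 to -0.39). Among the genes below 100 UMIs, Fkbp5, a chaperone that restrains the glucocorticoid receptor, had 71 and 19 UMIs (36.5 and 12.2 CPM, -1.59, -2.40 to -0.84) and Zbtb16, a transcriptional repressor, 33 and 10 (-1.41, -2.59 to -0.35). Nfkbia, an inhibitor of NF-kB, was near equal (-0.03, -0.58 to 0.52), and its sign turned without cluster 34 (0.16). In Y-linked nuclei the ratios were -0.58 (-0.78 to -0.39) for Sgk1, -0.88 (-1.35 to -0.43) for Mt1 and -1.38 (-2.43 to -0.40) for Fkbp5, the same direction without the nuclei that carried Xist. The intervals of Zbtb16 (-1.33, -2.89 to 0.10) and Pdk4 (-0.32, -0.73 to 0.10) held 0 in Y-linked nuclei, though not over all nuclei. In the 105 and 115 nuclei with fewer than 2 markers of neurons or oligodendrocytes the ratio was -0.77 (-1.12 to -0.43) for Sgk1, but -0.11 (-0.89 to 0.67) for Mt1, -0.13 for Pdk4, -0.015 for Klf9 and 0.23 for Nfkbia, each with an interval that held 0. Fkbp5 (-1.89, -4.41 to 0.11) and Zbtb16 (-1.11, -3.33 to 0.86) had few UMIs there and intervals that held 0 as well. Those nuclei were also shallower and differed in cluster makeup, and the cause of the changed ratios was not tested. Without cluster 23 the ratio of Sgk1 was -0.22 (-0.45 to 0.01), and with nuclei thinned to 800 UMIs that of Mt1 was -0.12 (-1.08 to 0.80).

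Oligodendrocytes, of which each of the 4 libraries held between 3637 and 4981, give these genes beyond the replicate 2 libraries. Fkbp5 was 248 and 178 CPM in control replicates 1 and 2 and 47.9 and 72.8 in AgRP-Gq;POMC-Gi replicates 1 and 2. Zbtb16 was 939 and 724 against 391 and 316 CPM, and Sgk1 565 and 553 against 411 and 279. Both control libraries lay above both AgRP-Gq;POMC-Gi libraries for Fkbp5, Zbtb16 and Sgk1, though a permutation of 2 libraries against 2 has no p below 0.333. The share of all genes with this order was not counted, so the order is a description only. Per1 overlapped between the groups, at 35.5 and 33.0 CPM in controls and 37.3 and 27.0 in AgRP-Gq;POMC-Gi libraries. In choroid plexus nuclei the replicate 1 libraries held too few UMIs of these genes, 3 and 0 of Fkbp5, to be read in this way.

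Clock genes had ratios on both sides of 0. Of 14 genes, 8 had enough UMIs, 5 lower and 3 higher, with a median log2 ratio of -0.20. Of all 6517 genes 49.5% were lower. Among the repressors and output genes under E-box control, Per1 had 93 and 36 UMIs (47.9 and 23.05 CPM, -1.05, -1.65 to -0.48) and Nr1d2 280 and 135 (144 and 86.4 CPM, -0.74, -1.04 to -0.44). With fewer UMIs, Per3 stood at 31.9 and 12.2 CPM (-1.39, -2.22 to -0.63) and Dbp at 34.5 and 17.3 (-0.996, -1.70 to -0.33). Per2 (-0.35, -0.93 to 0.23), Tef (-0.36, -0.78 to 0.06), Cry2 (-0.05, -0.63 to 0.51), Cry1 (0.17, -0.80 to 1.14) and Nr1d1 (0.41, -0.35 to 1.16), also repressors or output genes, had intervals that hold 0, and Nr1d1 was -0.19 in Y-linked nuclei. Of the activators, Npas2 stood at 41.7 and 76.2 CPM (0.87, 0.45 to 1.30; -0.041, -1.31 to 1.18, with nuclei thinned to 800 UMIs) and Arntl at 25.2 and 37.8 (0.58, 0.01 to 1.16), while Clock was 140 and 150 (0.09, -0.17 to 0.35). In Y-linked nuclei Per1 was -0.99 (-1.66 to -0.33), Per3 -1.07 (-2.01 to -0.17), Nr1d2 -0.69 (-1.06 to -0.32), Npas2 0.54 (0.03 to 1.06) and Arntl 0.65 (-0.07 to 1.42), and Clock was -0.041 (-0.35 to 0.27). In nuclei with fewer than 2 markers of neurons or oligodendrocytes the intervals of Per1 (-0.999, -2.12 to 0.07), Nr1d2 (-0.50, -1.14 to 0.13) and Npas2 (0.82, -0.07 to 1.77) held 0. In other cell types the picture was mixed as well. Nr1d2 was 54.4 and 57.2 CPM in oligodendrocytes of control replicates 1 and 2 and 36.5 and 42.2 in those of AgRP-Gq;POMC-Gi replicates 1 and 2. Both controls lay above there, and the same order held for Per2 and Per3 in oligodendrocytes and astrocytes. How many of all genes had this order was not counted. Npas2 overlapped between the groups in astrocytes, at 449.7 and 379 CPM in control replicates 1 and 2 and at 427 and 444 in AgRP-Gq;POMC-Gi replicates 1 and 2. The study's methods place a tissue collection early in the light phase, but the hour for each library is not given in the sources used here, so that the time of day and the group cannot be told apart.

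**Figure D5:**
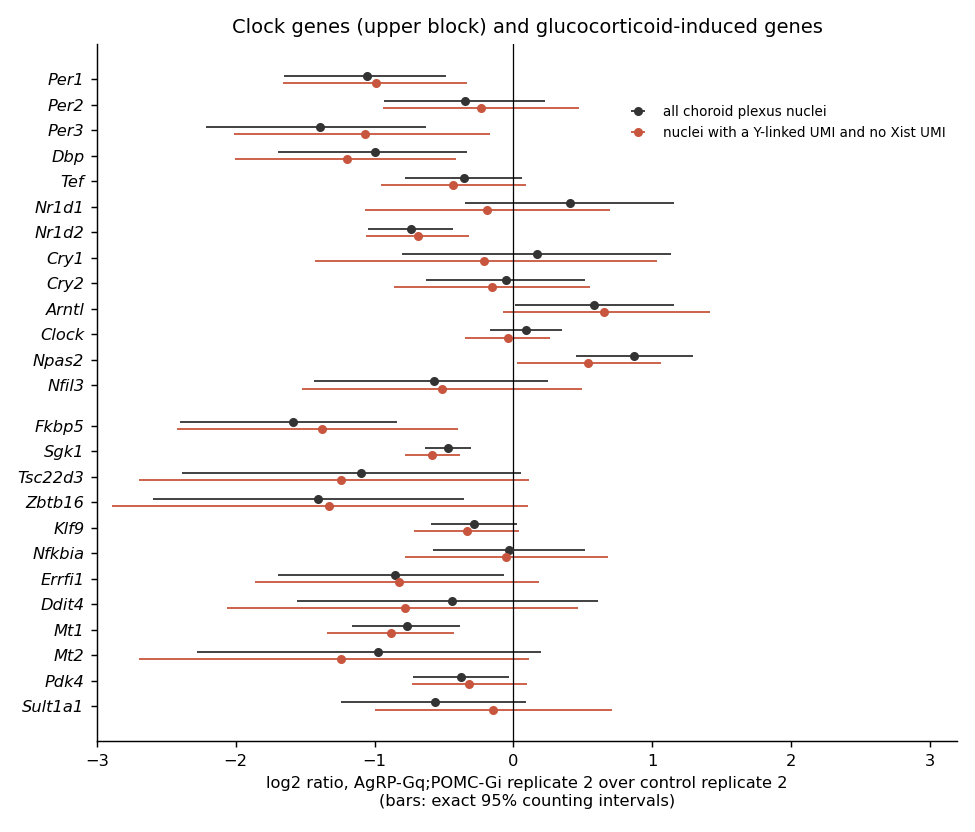
Log2 ratio of AgRP-Gq;POMC-Gi replicate 2 over control replicate 2 for clock genes (upper block) and glucocorticoid-induced genes (lower block; Per1 is on both lists and drawn once) with at least 30 UMIs, in all choroid plexus nuclei (black) and in those with a Y-linked and no Xist UMI (red). Bars are exact 95% counting intervals; Per1, Per3, Dbp, Nr1d2, Fkbp5, Sgk1 and Mt1 lie below 0 with both bars, and Npas2 above 0.

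Immediate early genes, which neurons and other cells switch on after stimulation, were sparse. Of the 10 used in the study, only Homer1 had enough UMIs, at 150 and 134 CPM (-0.16, -0.43 to 0.10). Summed over the list there were 446 and 296 UMIs (-0.28, -0.49 to -0.06), with Fos at 2 and 0 and Gem at 12 and 2 (-2.27, -5.47 to -0.10). Of 10 genes of the unfolded protein response and the secretory pathway, 8 had enough UMIs, 5 higher and 3 lower, with a median of 0.02. Of all 6517 genes 50.5% were higher. Hspa5, the main chaperone of the endoplasmic reticulum, stood at 345 and 255 CPM (-0.44, -0.62 to -0.25), and Calr, a calcium-binding chaperone, was also lower (-0.28, -0.52 to -0.04). The intervals of the other 6 genes held 0.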

How the data were processed

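Nuclei from 4 hindbrain libraries were sorted and sequenced by droplet-based single-nucleus RNA-seq. The deposited matrices hold raw counts of UMIs per gene and barcode, made by the authors with Cell Ranger 7.0.0 on GRCm38 (mm10), with Seurat 4.3.0 also named in the submitters' processing notes. The deposited table of nuclei gives the percent of mitochondrial UMIs per barcode, the authors' verdict on quality, cell type and preliminary cluster. The authors kept nuclei with at least 800 UMIs, 500 genes and at most 10% mitochondrial UMIs, removed doublets with a caller, and clustered an scVI embedding made without immediate early genes. Of 44303 barcodes, 4842 were left out, 3937 of which meet that filter. 4 columns of the table were not used.

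UMI counts of the kept nuclei were summed per library, cell type and cluster, and given in CPM with exact Poisson intervals. Ratios between libraries carry exact conditional intervals at 95%. Nuclei were not treated as replicates. The planned edgeR quasi-likelihood test between groups was not the main result, because control replicate 1 held 2 choroid plexus nuclei, under the minimum of 5, and it appears as an alternative only. Where a group comparison calls a gene, the gene had at least 100 UMIs in the replicate 2 libraries together and differed at least 2-fold. Shares were compared by an exact permutation test over libraries. Other depths were obtained by thinning each nucleus to 800 UMIs.

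The members and gene lists were chosen with earlier results of these data known. All genes of the lists could be named, though a few are not reported here. Beyond them the 20 genes with the highest ratio to any other type of at least 50 nuclei, the 15 genes with the largest ratio in each direction between groups, and the 10 genes with the largest lower ratio in each cluster could be named. Ldc1, Otx2os1 and the other symbols follow the deposited matrices, positions follow GENCODE M21, and promoters follow RefSeq (GRCm38.p6). Python 3.11.15, numpy 2.4.6, scipy 1.17.1, pandas 2.3.3, matplotlib 3.10.9, R 4.3.3, edgeR 4.0.16 and DESeq2 1.42.0 were used, and the statistics were tested on simulated data. Intervals cover counting error only. Alternatives changed the denominator of shares, the count minimum, the scaling, the depth, the clusters and the nuclei included.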

Additional observations from a re-analysis of the deposited data

Results flagged for a closer look

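Barcodes that the authors left out held choroid plexus transcripts as well. At least 3 of the markers Folr1, Kcnj13, Clic6, Kl, Otx2 and Enpp2 were counted in 213 of the 4842 barcodes left out, 2 and 120 in control replicates 1 and 2 and 5 and 86 in AgRP-Gq;POMC-Gi replicates 1 and 2, and 199 of them meet the stated limits on UMIs, genes and mitochondrial share. In the replicate 2 libraries their median was 8843 and 8243.5 UMIs, against 4177.5 and 4466 in kept choroid plexus nuclei. In control replicate 2, 39.2% of them had both an Xist and a Y-linked UMI, against 4.59% of the kept nuclei, and in AgRP-Gq;POMC-Gi replicate 2 the shares were 9.30% and 6.69%. At least 2 oligodendrocyte markers were counted in 72.5% and 64.0% of them, against 30.0% and 18.8% of the kept nuclei, and at least 3 neuron markers in 45.0% and 51.2%, against 8.72% and 5.47%. Ttr stood at 15734 and 12840 CPM in them. Groups of 2 libraries are too small for a search for outlying samples.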

How the results depend on the processing

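The share of choroid plexus nuclei moved with its definition. Of non-neuronal nuclei it was 5.96% in control replicate 2 and 5.20% in AgRP-Gq;POMC-Gi replicate 2. Counting nuclei with at least 3 of the markers Folr1, Kcnj13, Clic6, Kl, Otx2 and Enpp2 in place of the annotation gave 0.257% and 5.17% in control replicates 1 and 2 and 0.267% and 4.00% in AgRP-Gq;POMC-Gi replicates 1 and 2. Nuclei annotated as other types made up 25 and 96 of these in the controls and 20 and 76 in AgRP-Gq;POMC-Gi. Those annotated as choroid plexus were 0 and 424, then 6 and 322. In the replicate 1 libraries 23 (control) and 15 (AgRP-Gq;POMC-Gi) were neurons. All 12 markers stayed highest in choroid plexus nuclei under every alternative.

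The 15 genes at least 2-fold different became 72 at a minimum of 50 UMIs, 4 at 200 UMIs, 4 with nuclei thinned to 800 UMIs, 9 without nuclei holding 2 or more markers of neurons or oligodendrocytes, and 9 in nuclei with a Y-linked and no Xist UMI, an alternative chosen after seeing the data. Leaving out a replicate gave 9 to 15, the 9 being of 10 genes with enough UMIs in the replicate 1 libraries, where control replicate 1 held 2 nuclei. TMM and DESeq2 factors each gave 15. Of 223 single-gene alternatives, 216 kept their direction. The log2 ratio turned with thinning for Aebp1 (0.27) and Npas2 (-0.041), in Y-linked nuclei for Clock (-0.041), without cluster 29 for Cry2 (0.15), without cluster 34 for Nfkbia (0.16), and without nuclei holding other markers for Nfkbia (0.23) and Tef (0.13). The cause was not tested.

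With all 4 libraries, edgeR's quasi-likelihood test called 0 of 7096 genes (55 at an unadjusted p under 0.05), DESeq2 called 0 (11 unadjusted), and edgeR without a gene filter called 1 of 19929. Leaving out each library gave 0 to 9 calls, 9 of them without control replicate 2. A fit with the replicate block called 0 (8 unadjusted); whether replicate numbers pair the samples cannot be read from 2 and 6 nuclei (correlation 0.00834). The small libraries limit all 4-library tests.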

Other observations

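Single barcodes of the replicate 1 libraries outside the annotation carried choroid plexus transcripts, and were picked after their values were seen. In control replicate 1, a nucleus annotated as tanycyte-like held 85 UMIs of Ttr, 94 of Htr2c, 53 of Enpp2 and 15 of Otx2os1 among 12206. In AgRP-Gq;POMC-Gi replicate 1, a barcode that the authors left out held 223 UMIs of Ttr, 130 of Htr2c, 128 of Enpp2 and 35 of Gmnc among 11265. The glucocorticoid-induced gene Fkbp5 was also lower in both AgRP-Gq;POMC-Gi libraries than in both controls in astrocytes (275 and 178 CPM in control replicates 1 and 2, 24.5 and 28.9 in AgRP-Gq;POMC-Gi replicates 1 and 2), in fibroblasts (1296 and 1404, then 643 and 513) and in endothelial nuclei (223 and 447, then 122 and 75.8). How many of all genes had this order in those types was not counted. Cdh3, which encodes P-cadherin, stood at 73.6 CPM in choroid plexus nuclei of control replicate 2 and 129 in those of AgRP-Gq;POMC-Gi replicate 2, a log2 ratio of 0.81, and was 15.9 times the level of the next cell type.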
